A study of Rattus norvegicus with 4 samples.

Results

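Fasn, Fads2, Dgat1 and Fabp5 encode 3 enzymes that build fatty acids and fat and 1 protein that carries fatty acids inside the cell. Their messages were followed in rat liver 1 h after the common bile duct had been tied. The set was taken as every probe on the array whose annotation names 1 of these 4 genes and no other, which gave 7 of 1936 probes and 4 of 958 genes with singly named probes. Fasn had 1 probe, and Fads2, Dgat1 and Fabp5 had 2 each. No probe with several gene names included any of them. The genes were selected on their log ratios of ligated over sham in these same arrays, so their values in that contrast are a description and carry no test here.

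Both groups were male Sprague-Dawley rats of 250 to 300 g, whose ages the labels do not state, fed ad libitum after surgery. In the ligated group the common bile duct was tied between liver and intestine, and in the sham group it was exposed but not tied. Livers of 3 rats per operation were pooled as RNA, the poly(A) fraction was labelled with Cy5 or Cy3, and ligated and sham samples were hybridised together on 4 cDNA arrays. Arrays 1 and 3 had the ligated sample in Cy5, and arrays 2 and 4 had it in Cy3. Because animals were pooled, and separate extracts are not stated, errors measure the spread between arrays, which may be technical.

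Fatty acid synthase, the product of Fasn, assembles palmitate from acetyl-CoA and malonyl-CoA in the cytosol. The desaturase encoded by Fads2 puts the first new double bond into the essential fatty acids on their way to long polyunsaturated ones, and Dgat1 encodes an acyltransferase that joins an acyl-CoA to diacylglycerol to finish triglyceride. In liver, Fasn and Fads2 are classic targets of the transcription factor SREBP-1c, which insulin and the oxysterol receptor LXR raise. Fabp5 encodes the epidermal fatty acid binding protein, a small cytosolic carrier known from skin, adipose tissue, macrophages and endothelium, whereas the carrier most abundant in hepatocytes is Fabp1.

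Each probe has 1 deposited log ratio per array. The base of the logarithm is not given in the sources used here, and neither is the direction of the division. The ratios were read as ligated over sham, following the channel order of the labels; with the opposite order every sign below would turn. The array medians were -0.88, 0.75, -0.73 and 0.87 on arrays 1 to 4 and so changed sign with the dye. Arrays of opposite orientation correlated at -0.93 to -0.77 across probes, and those of the same orientation at 0.86 and 0.94. An operation contrast and a dye contrast were therefore taken from each probe with limma on values centred on the array medians. The operation estimate is the mean over both dye orientations, given with its standard error (SE, n = 4 arrays), and the dye contrast is the part that turns with the dye. Limma borrowed most of the spread from all probes, so that the median SE was 0.084 whatever the scatter of a probe's own values. A ratio gives no level, so whether the liver expressed a gene strongly or weakly cannot be read from these values, nor can fewer cells of a type be told apart from less RNA per cell.

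Fasn had the lowest operation estimate of the 7 probes. Its deposited log ratios at probe 1215 were -0.30, -0.27, -0.44 and -0.38 on arrays 1 to 4. All 4 were below 0, and the 2 dye orientations overlapped. Being below 0 on 4 of 4 deposited arrays was shared with 5.94% of all probes. After centring, the values were 0.57, -1.02, 0.29 and -1.25, above 0 where the ligated sample carried Cy5 and below 0 where it carried Cy3. The sign on single arrays thus depended on centring, while the operation estimate hardly did, at -0.35 ± 0.08 on centred values and -0.35 ± 0.05 as deposited. That is 1.28-fold lower after ligation if the base is 2 and 2.25-fold lower if it is 10.

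Averaging 1 array of each orientation cancels the dye, and the 4 such pairs gave Fasn -0.23, -0.34, -0.37 and -0.48 on the centred scale. All 4 pairs were below 0, as they were for 26.1% of all probes. Each array enters more than 1 pair, so the 4 pairs are not independent measurements. In size, the Fasn estimate was the 39th lowest of 1936. Fasn also lay below all 20 of its neighbours by probe number, 10 on each side, whose median operation estimate was 0.00. Leaving out 1 array at a time gave operation estimates from -0.42 to -0.28.

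**Figure D1:**
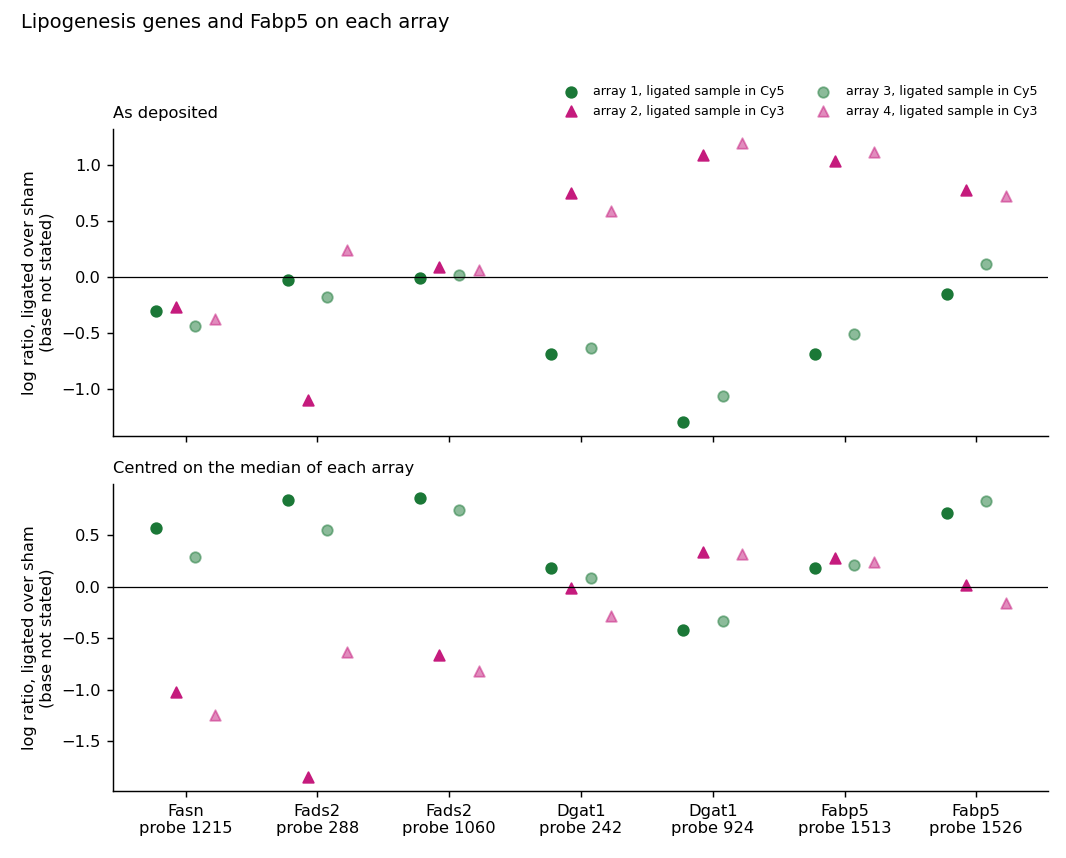
Log ratio, ligated over sham (base not stated), of each Fasn, Fads2, Dgat1 and Fabp5 probe on each of the 4 arrays, as deposited above and centred on each array's median below. Circles mark arrays with the ligated sample in Cy5 and triangles those with it in Cy3. Fasn lies below 0 on all 4 arrays as deposited, Fabp5 probe 1513 lies above 0 on all 4 after centring, and Fads2 probe 288 is lower on array 2 than on the other arrays.

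The 2 probes of Fads2 gave different operation estimates. Probe 1060 had deposited log ratios of -0.01, 0.09, 0.02 and 0.06 on arrays 1 to 4, all close to 0. Its operation estimate was 0.03 ± 0.08, and without single arrays it ranged from -0.01 to 0.07. Probe 288 had -0.03, -1.10, -0.18 and 0.24, with array 2 below the other 3. Its operation estimate was -0.27 ± 0.10, with a residual SD of its own of 0.63 against 0.10 at probe 1060.

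The estimate of probe 288 depended on single arrays. Without array 2 it was 0.03, and without array 4 it was -0.58. The probe numbers were split into 16 consecutive stretches of equal length, here called blocks, and probe 288 lies in block 3. The median operation estimate of all probes in block 3 was -0.29, close to that of probe 288. On array 2 the centred value of probe 288 was -1.86, and the median of block 3 was -0.87. With the dye curve fitted within each block and subtracted, probe 288 had an operation estimate of 0.05 ± 0.05 and probe 1060 had 0.08 ± 0.03. The single-symbol probe with the 4 centred values nearest to those of probe 288 was the adjacent probe 289 of Ccng1 (root mean square difference 0.095 over 4 arrays). The next nearest, Sgk1 probe 342 and Ppp5c probe 338, lie in block 3 as well.

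**Figure D2:**
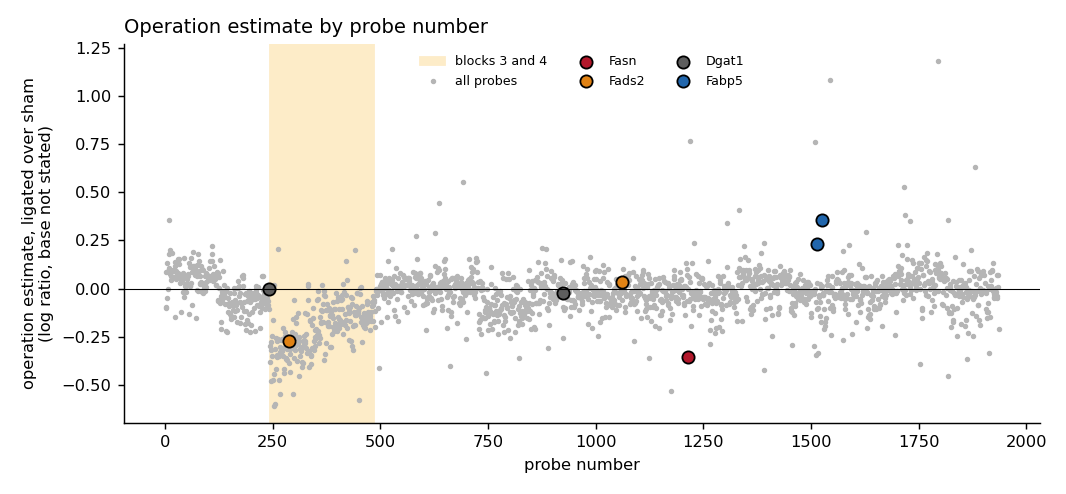
Operation estimate (ligated over sham, log ratio of unstated base, vertical axis) of all 1936 probes against probe number, with blocks 3 and 4 shaded and the Fasn, Fads2, Dgat1 and Fabp5 probes in colour. Fads2 probe 288 sits among the low values of block 3, whose median is -0.29, whereas Fasn and both Fabp5 probes stand away from the probes around them.

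Dgat1 had operation estimates near 0 at both probes. Probe 242 had deposited log ratios of -0.69, 0.74, -0.64 and 0.59 on arrays 1 to 4, and probe 924 had -1.30, 1.09, -1.06 and 1.19. Both were below 0 with the ligated sample in Cy5 and above 0 with it in Cy3, so the orientations did not overlap and the values followed the dye. The operation estimates were -0.005 ± 0.08 for probe 242 and -0.03 ± 0.08 for probe 924. Subtracting the dye curve of the block left them at 0.04 ± 0.04 and -0.01 ± 0.04. Probe 242 is the last of block 2 and borders block 3, and its estimate was above those of all 20 neighbours, whose median was -0.14. The 95% intervals of the limma estimates ran from -0.17 to 0.16 at probe 242 and from -0.19 to 0.14 at probe 924. These values therefore do not exclude a change of Dgat1 within those bounds.

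Fabp5 had the highest operation estimates of the set, and its 2 probes had the same sign. Probe 1513 had deposited log ratios of -0.69, 1.03, -0.51 and 1.12 on arrays 1 to 4, which followed the dye. After centring they became 0.19, 0.28, 0.21 and 0.24, above 0 on every array, as for 1.5% of all probes. Its operation estimate was 0.23 ± 0.08. The SE is almost wholly the shared one, since limma borrowed most of the spread from all probes. The probe's own residual SD was 0.02, the smallest of the 7.

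Probe 1526 of Fabp5 had deposited log ratios of -0.15, 0.77, 0.11 and 0.72, above 0 on arrays 2, 3 and 4. Centred, they were 0.72, 0.02, 0.84 and -0.15, higher on the arrays with the ligated sample in Cy5. The operation estimate was 0.36 ± 0.08, which is 1.28-fold higher after ligation if the base is 2 and 2.27-fold higher if it is 10. It was the 12th highest of 1936 and that of probe 1513 the 21st highest. The dye-balanced pairs, which share arrays, ran from 0.28 to 0.43 at probe 1526 and from 0.22 to 0.25 at probe 1513. All were above 0, as they were for 11.6% of all probes.

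Both Fabp5 probes lie in block 13, whose median operation estimate was -0.03. Probe 1526 was above all 20 of its neighbours by number and probe 1513 above 19 of 20. After the dye curve of the block the estimates were 0.40 ± 0.04 and 0.25 ± 0.04, and Fasn had -0.29 ± 0.03. Without single arrays, probe 1526 ranged from 0.31 to 0.40 and probe 1513 from 0.22 to 0.24. Averaged over probes on centred values, Fabp5 had an operation estimate of 0.29, Dgat1 -0.02 and Fads2 -0.12, the last an average over probes that disagree. After the dye curve of the block these averages were 0.33 for Fabp5, 0.01 for Dgat1 and 0.06 for Fads2.

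**Figure D3:**
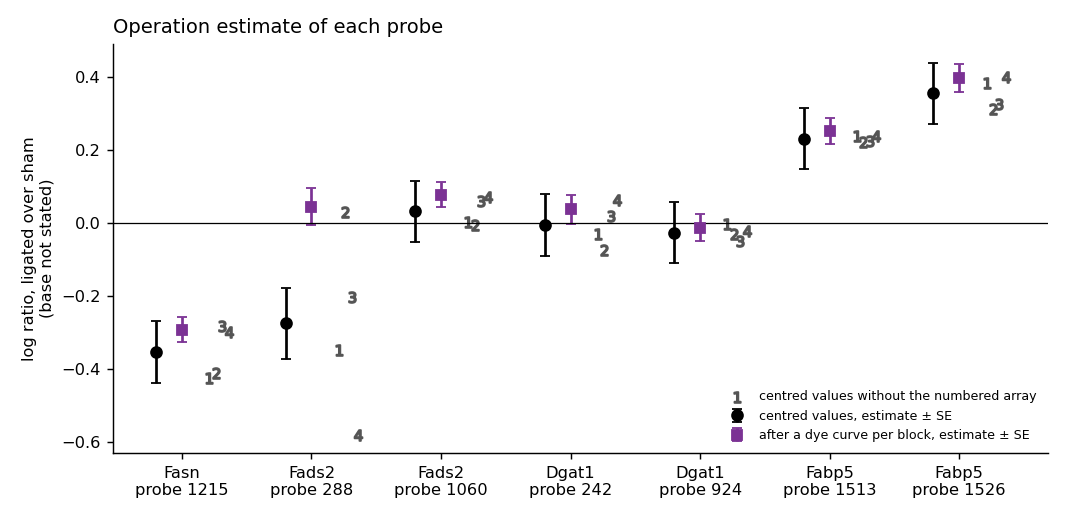
Operation estimate (ligated over sham, log ratio of unstated base) of each probe on centred values (black circles) and after a dye curve per block (purple squares), both ± SE over 4 arrays, with grey digits for the estimate without the numbered array. Fasn stays below 0 and both Fabp5 probes above 0 in all of these, while Fads2 probe 288 moves between -0.58 and 0.05.

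In limma across all probes, 111 of 1936 (5.73%) passed a Benjamini-Hochberg adjusted p of 0.05, 18 higher (0.930%) and 93 lower (4.80%) after ligation. Fasn and Fabp5 probe 1526 were among them, 2 of the 7 probes, and nothing is read from that count because the genes were selected on the same contrast. After the dye curve per block 136 probes passed (7.02%), among them 3 of the 7, Fasn and both of Fabp5, and nothing is read from this either.

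The dye contrast played no part in selecting the genes, and it separated the probes in another order. On the deposited scale it was 0.16 for Fads2 probe 288, -0.03 for Fasn and -0.03 for Fads2 probe 1060. It was -0.38 and -0.84 for Fabp5 probes 1526 and 1513, and -0.67 and -1.16 for Dgat1 probes 242 and 924, against a median of -0.81 over all probes. Fasn and both Fads2 probes thus lay near 0. The 12 probes of 5 hepatocyte marker genes had a median of -0.08 and ranged from -1.55 at Serpina1 probe 1874 to 0.23. Several were probes of Cyp2e1, which by themselves ran from -1.48 to 0.23. Tf, Ttr and Apoa1 had 0.12, 0.19 and 0.18. Probes of 1 gene could differ widely in it: the second Dgat1 probe lay 0.50 below the first, and the second Fabp5 probe 0.45 above the first. These are descriptions of labelling on these arrays, with no test.

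**Figure D4:**
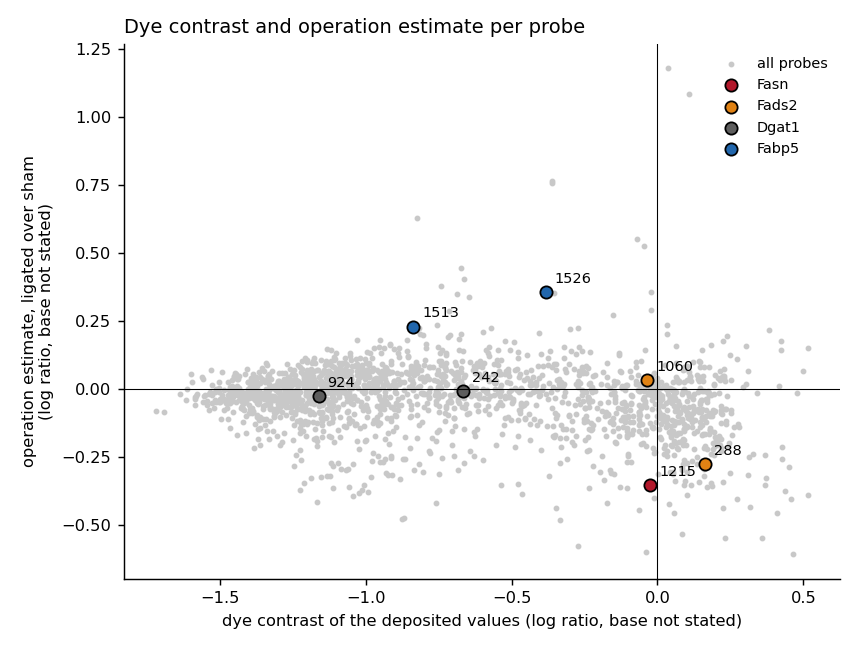
Operation estimate (ligated over sham, vertical axis) against dye contrast of the deposited values (horizontal axis), both log ratios of unstated base, for all 1936 probes (grey) and the 7 probes of Fasn, Fads2, Dgat1 and Fabp5 (coloured, with probe numbers). Fasn and Fads2 lie near a dye contrast of 0 and Dgat1 and Fabp5 further left, while the operation estimates put Fasn low and Fabp5 high.

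The nearest patterns to each probe were sought among all other singly named probes, by the root mean square difference of the 4 centred values. For Fasn the nearest were Pgrmc1 probe 1913 (0.096), Cyp8b1 probe 1391 (0.097) and Pfkfb1 probe 1125 (0.101), with operation estimates of -0.34, -0.42 and -0.36. For Fabp5 probe 1513 they were Nfkbia (0.088), Dusp6 probe 1872 (0.116) and Sh3yl1 (0.116). For Fabp5 probe 1526 the nearest was Aldh1a1 (0.113), followed at more distance by Nme1 (0.168) and Cyp2c23 (0.194). The neighbours of the flat probes were closer. Fads2 probe 1060 had Gadd45a (0.035), Nr2f6 (0.039) and Cdc23 (0.039). Dgat1 probe 242 had Becn1 (0.053), Kif5c (0.056) and Fgfr2 (0.057), and Dgat1 probe 924 had Dync1i2 (0.019), Pak3 (0.033) and Slc22a6 (0.034). A likeness over 4 arrays includes the shared dye contrast and is a description only.

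Of 155 other genes of lipid metabolism listed by role, 33 were measured, by 52 probes. Of these probes 3 rose and 3 fell, 6 in all (11.5%) beside 5.73% of all probes, and 46 did not pass. The list was written with earlier results of these data known, so nothing is read from this share. Their median operation estimate was -0.04, against -0.02 over all probes. The enzymes nearest to Fasn in the pathway were thinly covered. Me1, the malic enzyme that supplies NADPH, had 0.12 ± 0.08, and the stearoyl-CoA desaturases Scd and Scd2 had 0.00 ± 0.08 and -0.02 ± 0.08, none past the threshold (limma adjusted p = 0.661, 0.991 and 0.991). Of the fatty acid carriers related to Fabp5, Fabp4 had 0.06 ± 0.08, Fabp7 had 0.05 ± 0.08, and Fabp3 had -0.04 and 0.04 at its 2 probes, none past the threshold (adjusted p from 0.971 to 0.991).

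Among 23 probes of regulators, 3 rose and 1 fell. Nr0b2, the small heterodimer partner that represses other nuclear receptors, accounted for 2 of the 3, at 1.18 ± 0.08 and 1.08 ± 0.08 (limma adjusted p = 8.11e-20 and 3.82e-18). The other was Rxrg probe 582, a retinoid X receptor that pairs with LXR and FXR, at 0.27 ± 0.08 (limma adjusted p = 0.0337). That call ended without array 1, 2 or 3, although the estimate was 0.27, 0.24 and 0.27 there. The median SE over all probes was 0.144 without array 1 or 3, against 0.084 with every array. Without array 1 or 3, a call of this size could thus be lost with its estimate unchanged. Without array 2 the median SE was 0.086, and the estimate of Rxrg probe 582 was lower, at 0.24. With the curve of its block subtracted, Rxrg probe 582 had 0.28 ± 0.04 and passed (limma adjusted p = 0.00169). The second Rxrg probe had -0.07 ± 0.08, and -0.01 ± 0.04 with the curve of its block subtracted. The glucocorticoid receptor Nr3c1 fell by 0.35 ± 0.09 at probe 340 (adjusted p = 0.00705), which lies in block 3. With the curve of its block subtracted, this probe had -0.09 ± 0.05 and did not pass (adjusted p = 0.338). The call also ended without array 1, 2 or 3, at estimates of -0.30, -0.15 and -0.39. The other Nr3c1 probes had -0.04 and -0.13. The LXR gene measured, Nr1h2, had -0.10 ± 0.08 (adjusted p = 0.773).

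Of 9 probes of fatty acid carriers, uptake and activation, 1 fell: Acsl1, which activates fatty acids to acyl-CoA, by 0.30 ± 0.09 at probe 433 of block 4 (limma adjusted p = 0.0219). The call ended without array 1, 2 or 3, at estimates of -0.36, -0.20 and -0.23, with the larger SE again without array 1 or 3. The estimate was -0.16 ± 0.04 with the curve of its block subtracted (adjusted p = 0.0318), and the second Acsl1 probe, 1177, had -0.13 ± 0.08 (adjusted p = 0.548). Of 10 oxidation probes 1 fell, Acadl probe 800, a mitochondrial acyl-CoA dehydrogenase, by 0.26 ± 0.08 (adjusted p = 0.0485). Without array 1, 2 or 3 it did not pass, at estimates of -0.28, -0.23 and -0.24. Nor did it pass with the curve of its block subtracted (-0.14 ± 0.04, adjusted p = 0.0561), and the other 2 Acadl probes had 0.04 and 0.05. Cpt1a, the gate of mitochondrial fatty acid entry, had -0.18 ± 0.08 at probe 677 (adjusted p = 0.288), and passed as lower with the curve of its block subtracted (-0.19 ± 0.04, adjusted p = 0.0261). The second Cpt1a probe, 1622, had -0.02 ± 0.08 (limma adjusted p = 0.991), and -0.02 ± 0.04 with the curve of its block subtracted (adjusted p = 0.872). None of the 7 export and lipolysis probes passed. All 7 had estimates below 0, as had 1167 of all 1936 probes, and with the block curves subtracted Apoc1 probe 1261 had 0.01. The 7 estimates ran from -0.21 at Lipc to -0.04 at Ces1e probe 1772.

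**Figure D5:**
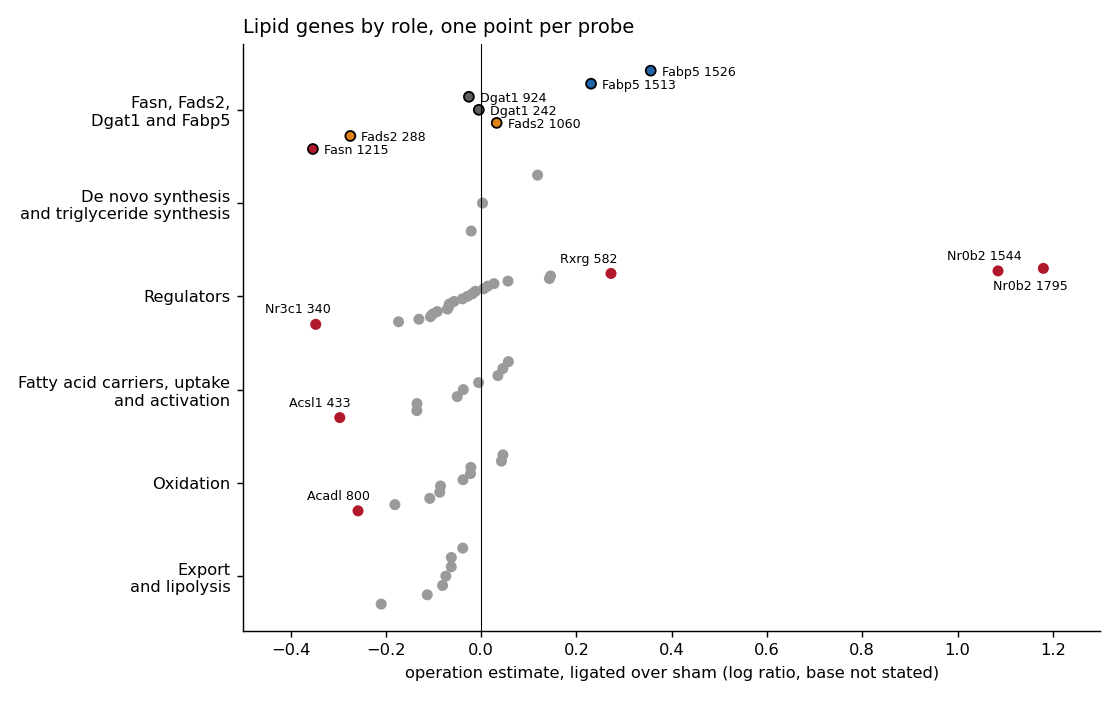
Operation estimate (ligated over sham, log ratio of unstated base) of each probe of Fasn, Fads2, Dgat1 and Fabp5 in the top row and of the 52 probes of other lipid genes below, by role. In the lower rows red points passed an adjusted p of 0.05 in limma and grey points did not. Fasn lies lowest, close to Nr3c1 probe 340, and Fabp5 probe 1526 lies highest apart from the Nr0b2 probes. Fabp5 probe 1513 lies below Rxrg probe 582. The genes of the top row were selected on this contrast, so their places carry no test.

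Markers of cells known to express Fabp5 were few on the array. No gene of the macrophage, cholangiocyte or epidermal lists was measured. The 4 endothelial probes lay between -0.21 and -0.05, and the adipocyte markers Fabp4 and Lpl had 0.06 and -0.06, none past the threshold. Of 3 stellate and fibroblast probes, 1 of Col1a1 rose (0.34 ± 0.08, limma adjusted p = 0.00526). That call ended without array 1 or 3, where the SE was larger and the estimate was 0.40 and 0.28. With the curve of its block subtracted, the Col1a1 probe that rose had 0.36 ± 0.06 and passed (limma adjusted p = 0.00474). The second Col1a1 probe had 0.10 ± 0.08 (limma adjusted p = 0.812). With the curve of its own block subtracted, that second probe had 0.11 ± 0.04 (limma adjusted p = 0.113). Of 4 blood probes 1 of Pf4, in block 3, fell by 0.30 ± 0.09 (limma adjusted p = 0.0337), while the other Pf4 probe had 0.14 ± 0.08 (limma adjusted p = 0.492). The call in block 3 ended without array 1, 2 or 3, at estimates of -0.33, -0.04 and -0.28. It also ended with the curve of its block subtracted (-0.04 ± 0.03, adjusted p = 0.536). The 12 hepatocyte probes lay between -0.24 and 0.07 and none passed. With the curves of their blocks subtracted, 1 passed as lower, Ttr, at -0.17 ± 0.04 (limma adjusted p = 0.0293). Another 1 passed as higher, Cyp2e1 probe 1234, at 0.15 ± 0.04 (limma adjusted p = 0.0359). The part of other cell types in the Fabp5 value was not tested.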

How the data were processed

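The authors deposited, for every probe on every array, a log ratio between both channels, handled here as a score because its log base is not given in the sources used here; neither are the scanner, the background correction or the normalization. Labelling and pooling are described per the labels' protocols. The series matrix holds 1936 probes with 0 missing values; spot intensities were not analysed here, and precision is limited by there being 4 arrays. Gene names came from the platform annotation, and 1429 of 1432 singly named probes took their current symbol from RefSeq's GRCr8 gene table, matched on gene ID. No coordinates are given.

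Each array was centred on its median and fitted with limma 3.58.1 in R 4.3.3 (lmFit, eBayes; terms for operation and dye; Benjamini-Hochberg over all probes, threshold 0.05). The fit had 2 residual degrees of freedom and a prior of 76.2, and was tested on simulated data. Those data had independent noise of the same SD for every probe and no block shifts, so they do not bear on the block shifts seen here. A dye curve is a loess curve of each array on the mean dye contrast, fitted per array or within each of 16 blocks of consecutive probe numbers.

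The genes, lipid and marker lists, block size and alternatives were chosen with earlier results of these data known. Named are all probes of the 4 genes, lipid probes that passed with their second probes, pathway neighbours, and the 3 nearest patterns per probe. Apoc1, Col1a1, Pf4, Tf, Ttr, Apoa1, Serpina1, Cyp2e1, Cpt1a, Nr1h2, Me1, the other Fabp genes and the ends of the export list were named after their values were seen.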

Additional observations from a re-analysis of the deposited data

How the results depend on the processing

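The operation estimates of Fasn (-0.42 to -0.28 without single arrays), Fabp5 probe 1526 (0.31 to 0.40), Fabp5 probe 1513 (0.22 to 0.24), Fads2 probe 1060 (-0.01 to 0.07), Dgat1 probe 242 (-0.07 to 0.06) and Dgat1 probe 924 (-0.05 to 0.00) moved by less than the SD of 1 array value in limma under every setting that keeps the ligated over sham reading. Fads2 probe 288 did not: it had 0.046 after the dye curve per block and -0.58 to 0.031 without single arrays. In the Cy5 over Cy3 reading, which takes arrays 2 and 4 with the sign turned, Fasn had 0.78, Fads2 0.97 and 0.77 at probes 288 and 1060, Dgat1 probe 924 -0.35 and Fabp5 probe 1513 -0.030. The same reading without centring, added after seeing the data, gave Fasn -0.025, Fads2 probe 288 0.16, Dgat1 -0.67 and -1.16 at probes 242 and 924, and Fabp5 -0.84 and -0.38 at probes 1513 and 1526; these are the dye contrasts.

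Over all probes, 111 passed, and 3 without centring, 62 with equal scale per array, 67 with a robust prior, 12 after quantile normalization, 7 after a dye curve per array, and 12 to 241 without single arrays. No probe passed (0) without the dye term or in a one-sample test without moderation (5 and 10 at an unadjusted p under 0.05), and 277 had an unadjusted p under 0.05 in limma. The Cy5 over Cy3 reading gave 1599, and 1504 without centring. Of the calls, 18 of 111 were higher, against 71 of 136 after the dye curve per block, 3 of 3 without centring and 9 of 12 after quantile normalization. Of the other lipid probes 6 passed; 2 did so without centring, after quantile normalization and after a dye curve per array, 3 with equal scale, 0 without the dye term, 45 and 37 in the Cy5 over Cy3 reading with and without centring, and 2 to 7 without single arrays. The causes were not tested. Without blocks 3 and 4, a setting added after seeing the data, 135 probes and 7 of these lipid probes passed. Each log ratio compares a ligated with a sham sample on the same array, so that pairing is already in the values. All 4 arrays form 1 group of ratios, and no pairing between arrays was used in limma. The number of arrays and the unknown intensities limit what a flat probe shows.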
